A study of Arabidopsis thaliana with 6 samples.

Results

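Recurrent binding sites of JAGGED (JAG) that lie just outside genes were described in flower buds of Arabidopsis thaliana. A site was recurrent if peaks of all 3 replicate lists overlapped there by at least 1 bp, directly or in a chain, and it counted as flanking if its summit lay outside every protein-coding gene but no farther than 1000 bp from the nearest. The summit is the position of the maximum of the highest-scoring peak in each list, taken as the median over the lists. Of 3683 merged regions 869 were recurrent, and 411 of these (47.3%) were flanking. The regions were chosen by the peak positions and summits themselves, so their number, scores and positions are descriptions, with no test. Of the recurrent regions, 76 of 157 on chromosome 1 (48.4%, up to position 23827070) and 78 of 162 on chromosome 2 (48.1%) were flanking. The counts were 95 of 175 on chromosome 3 (54.3%), 74 of 156 on chromosome 4 (47.4%) and 88 of 219 on chromosome 5 (40.2%).

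The tagged samples came from jag-2 mutants that carried JAG:JAG-GFP, a genomic JAG fusion to green fluorescent protein under the JAG promoter, and the controls from untagged wild-type plants of the L-er accession, with 3 samples in each group. All samples were inflorescence tips with unopened buds, fixed and precipitated with beads against the fluorescent protein. The tissue was taken whole, so which of its cells carried a given site is not known, and the labels do not state how many transgenic lines were used. Peak lists hold no expression values, so the tissue could not be checked against marker genes.

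JAG is a C2H2 zinc finger protein needed for the growth of lateral organs such as petals and leaves, and it carries an EAR motif, a short stretch through which plant factors recruit TOPLESS-type co-repressors. Much of the regulatory sequence of Arabidopsis lies in short gaps beside genes, which makes flanking sites the usual place to look for target genes. A site in such a gap can be as near to the gene on its left as to the gene on its right. Nearness alone does not name the gene that a site acts on, and the gene table used has no strand, so a site before a gene start cannot be told apart from a site behind a gene end.

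The lists held 2620, 2143 and 2127 peaks for replicates 1, 2 and 3, each with a score deposited by the authors. The labels and headers do not state the scale of the score, and means over lists assume a common scale. Depth per library is unknown. The list of replicate 3 ended at position 23827070 of chromosome 1, and everything past it was left out. Regions were thus built from 2376, 1960 and 2127 peaks of replicates 1, 2 and 3. The labels do not say whether the replicates came from separate plants, so the spread between lists may be technical.

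The strongest flanking site lay 195 bp from AT1G29630 (chr1:10353488-10354716, TAIR10). It scored 4.77 in replicate 1, 4.86 in replicate 2 and 7.68 in replicate 3, and its mean of 5.77 ± 1.65 (SD, n = 3 lists) ranked 7th of all recurrent regions. Replicate 3 stood well above the other lists here, and its excess of 2.91 over the lowest list was the widest range of any flanking site. The next site lay 568 bp from UNE7 (AT3G03690, chr3:912756-915518), a gene named after embryo sacs that stay unfertilized in its mutant. Its scores of 5.17, 5.89 and 5.86 in replicates 1, 2 and 3 lay closer together. The site ranked after it was 29 bp from AGK2 (AT3G57550, chr3:21308950-21311649), which encodes a guanylate kinase and so acts in nucleotide metabolism, with scores of 4.98, 4.60 and 5.22. AT3G23170 had a site at 821 bp (chr3:8269529-8270530), and its scores of 4.70, 4.79 and 4.91 were the closest together among these leading sites.

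Of the 25 highest sites, 3 with a transcription regulator nearest are given here, chosen after their values were seen. IAA13 (AT2G33310), an Aux/IAA repressor of auxin response, had a site at 871 bp (chr2:14116605-14117251) that scored 4.00, 4.65 and 4.66 in replicates 1, 2 and 3. PIF7 (AT5G61270), a bHLH factor that acts in shade responses, had a site at 937 bp with scores of 3.61, 3.12 and 4.61. HAT2 (AT5G47370), an auxin-inducible HD-ZIP homeobox gene, had a site at 757 bp with scores of 3.17, 3.78 and 4.34, and the summits of its lists lay within 10 bp of each other. In all 3 of these genes the site lay in the outer part of the window, beyond 500 bp, where 10 of the 25 sites lay.

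Some of the other leading sites lay nearer to their genes. CYCP4;1 (AT2G44740), a P-type cyclin, had a site 11 bp away in a gap of only 146 bp, with scores of 3.26, 3.41 and 3.83 in replicates 1, 2 and 3, and AT2G44735 bounded the other side. GRP5 (AT3G20470), which encodes a glycine-rich protein, had a site 18 bp away that scored 3.02, 3.36 and 4.06. AT2G21210, listed as SAUR6 of the small auxin-upregulated RNA genes, had a site 47 bp away that scored 3.31, 3.69 and 3.44. A site 401 bp from SIP4 (AT2G30360), the CBL-interacting kinase also called CIPK11, scored 3.61, 3.99 and 3.40. At AGK2, CYCP4;1 and GRP5 the summit of replicate 1 itself lay in a gene body. The sites at AT2G21210 and SIP4 did not have their highest score in replicate 3, unlike most of the leading sites.

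The rest of the 25 had mean scores up to 4.48. Their nearest genes included PPAN, a PETER PAN-like gene, with 3.40, 2.97 and 5.31 in replicates 1, 2 and 3 at 497 bp. Among them were also emb1273, AAT, SAC9, which encodes a phosphoinositide phosphatase, and RIC7, which encodes a partner of ROP GTPases. The site at AT4G30940 also lay within 1000 bp of WRKY32, and the site at AT3G26700 within 1000 bp of CCB1, a factor in the assembly of the cytochrome b6f complex. The nearest genes without a symbol in the table were AT1G15370, AT2G27775, AT5G10960, AT5G13400, AT3G05980, AT2G10940 and AT5G66770. Replicate 3 gave the highest score at 21 of the 25. Within 200 bp of a gene lay 9 of the 25 and beyond 500 bp lay 10, with a median distance of 401 bp.

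**Figure D1:**
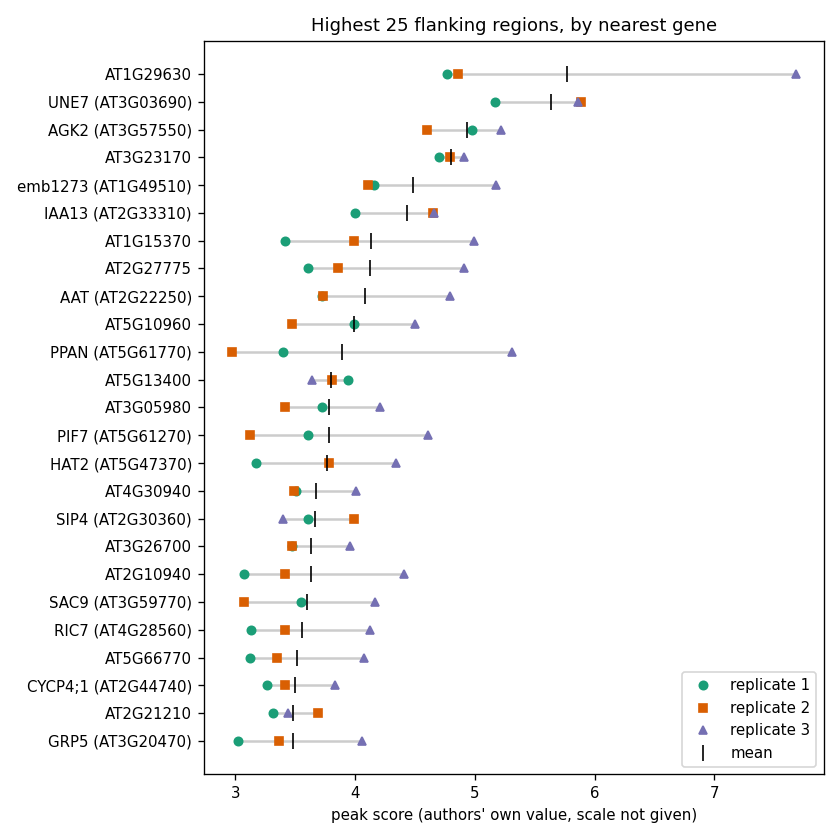
Peak score (x axis, the authors' own value) of the 25 flanking sites with the highest mean, by nearest gene (y axis); circles, squares and triangles are replicates 1, 2 and 3, the grey line their range and the black tick their mean. Replicate 3 was highest at 21 of the 25, and AT1G29630 had the widest range.

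Most flanking sites were modest. The mean score had a median of 2.32 with quartiles of 2.16 and 2.66, against a highest value of 5.77, and 55 of 411 sites (13.4%) reached a mean of 3 or more. The median score was 2.26 in replicate 1, 2.28 in replicate 2 and 2.46 in replicate 3. Replicate 3 held the highest score, ties included, at 233 sites, replicate 2 at 100 and replicate 1 at 80. The scores of a site differed by a median of 0.44 between its highest and lowest list. In the upper 50% of every list as deposited, the end of chromosome 1 included, lay 228 sites. Across the 411 sites, which share libraries and are not replicates, scores correlated with Spearman's rho of 0.55 between replicates 1 and 2, 0.58 between 1 and 3 and 0.68 between 2 and 3.

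The lowest means belonged to AT2G30990 with 1.88, 1.94 and 1.92 in replicates 1, 2 and 3, BRI1 with 1.88, 1.98 and 1.88, and AT5G20700 with 1.88, 1.95 and 1.89. BRI1 is the brassinosteroid receptor, and its median summit lay 61 bp away, while the summits of replicates 2 and 3 lay in a gene body. These scores were close to the lowest of each whole list, 1.86, 1.89 and 1.87.

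Scores lay close together in the 3 places a recurrent summit can lie. The median of the mean score was 2.32 for flanking sites, 2.37 for sites in gene bodies (n = 230) and 2.47 for sites farther than 1000 bp from a gene (n = 228). In replicate 1 the medians were 2.26, 2.29 and 2.31 in that order, in replicate 2 they were 2.28, 2.29 and 2.40, and in replicate 3 they were 2.46, 2.53 and 2.63. Flanking sites thus had the lowest median in every list, by 0.03, 0.01 and 0.07 against gene bodies, while the means of all 3 classes began at 1.91 and reached 5.77 for flanking sites, 8.01 in gene bodies and 7.11 beyond 1000 bp. No test was made, because the same peaks define the classes. Of the 10 highest recurrent regions 2 were flanking (20%, Wilson interval 5.7 to 51.0%). The counts were 21 of the 50 highest (42%, 29.4 to 55.8%) and 45 of the 100 highest (45%, 35.6 to 54.8%). Of the 200 highest, 82 were flanking (41%, 34.4 to 47.9%). Each interval covers counting error only and includes the 47.3% of all recurrent regions. These counts therefore do not show a lower flanking share among the highest regions.

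Flanking peaks were narrower at the median than the gaps they lay in, but at most sites they reached into a gene. Median widths of the highest-scoring peak per list were 1295 bp, 1139 bp and 1209 bp in replicates 1, 2 and 3. The stretch common to these 3 peaks had a median of 768 bp. The gap between the neighbouring genes had a median of 2182 bp, with quartiles of 1251 bp and 3464 bp. In 248 of 411 sites (60.3%, 95% Wilson interval 55.5 to 65.0%) the common stretch reached into a gene, and in 46 sites it reached into 2. The interval covers counting error only. In 17 sites the highest-scoring peaks of the lists had no common stretch. Lower peaks of a region were left out of this measure, and 346 of 411 sites had exactly 3 peaks.

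Summits were placed more sharply than the peaks. The summits of the 3 lists lay within a median of 127 bp of each other at a flanking site, against 106 bp in gene bodies and 122 bp at sites beyond 1000 bp. In 335 of 411 sites (81.5%, Wilson interval 77.5 to 85.0%) each list by itself put the summit outside genes and within 1000 bp. At 50 flanking sites at least 1 list put the summit inside a gene, and at 27 at least 1 list put it beyond 1000 bp. All 3 lists gave the same place at 177 of 230 sites in gene bodies (77.0%) and 199 of 228 beyond 1000 bp (87.3%). Summits lay over 500 bp apart at 64 of the 411 flanking sites. For those, the flanking class rests on the median of 3 scattered positions.

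The share of flanking sites lay between 44.0% and 49.1% at the levels of recurrence, and no test of the differences was made. It was 47.3% among regions of all 3 lists, 49.1% among the 811 regions of 2 lists and 44.0% among the 2003 regions of a single list, with Wilson intervals of 44.0 to 50.6%, 45.6 to 52.5% and 41.8 to 46.2%. Over regions of 1 or 2 lists together it was 45.5%. Gene bodies held 26.5% of summits in regions of 3 lists, 33.2% in regions of 2 lists and 42.1% in regions of a single list. Places beyond 1000 bp held 26.2%, 17.8% and 13.9% in the same order. The single-list share was near 44% for each list, at 43.9%, 44.3% and 43.7% for replicates 1, 2 and 3.

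**Figure D2:**
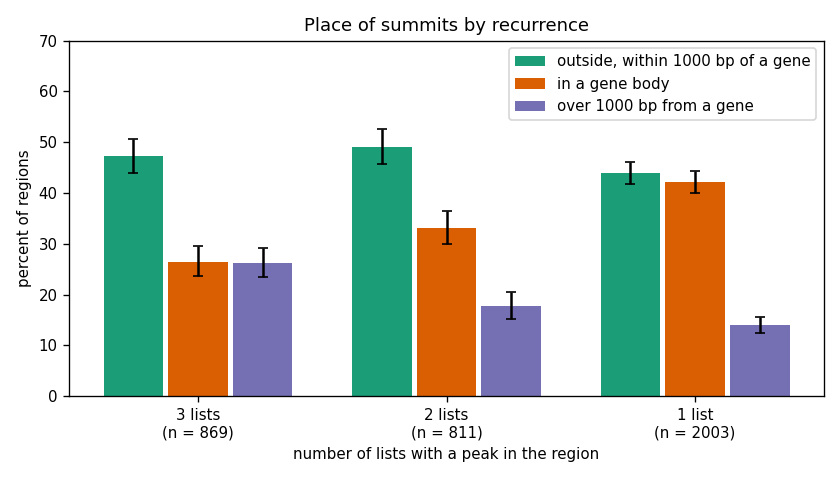
Percent of regions (y axis) whose summit lay outside genes within 1000 bp, in a gene body or over 1000 bp from a gene, for regions with a peak in 3, 2 or 1 lists (x axis); error bars are 95% Wilson intervals for counting error. The flanking share was 47.3%, 49.1% and 44.0%, while the gene body share was 26.5%, 33.2% and 42.1%.

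Distances to the nearest gene followed the space available. The median distance was 369 bp, with quartiles of 174.5 bp and 651.5 bp. Within the first 100 bp lay 68 summits (16.5%), and that ring holds 17.4% of all flanking bases, counted over the genome with the same limits as the sites. From 101 to 200 bp the shares were 13.6% of summits and 14.4% of bases. Up to 200 bp the sums were 30.2% of summits and 31.7% of bases, and up to 500 bp they were 63.5% and 64.8%. From 801 to 900 bp summits had 8.52% and bases 6.28%, the widest gap between these shares of any ring. The median mean score of a ring ranged from 2.26 to 2.49, with the highest value from 901 to 1000 bp.

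**Figure D3:**
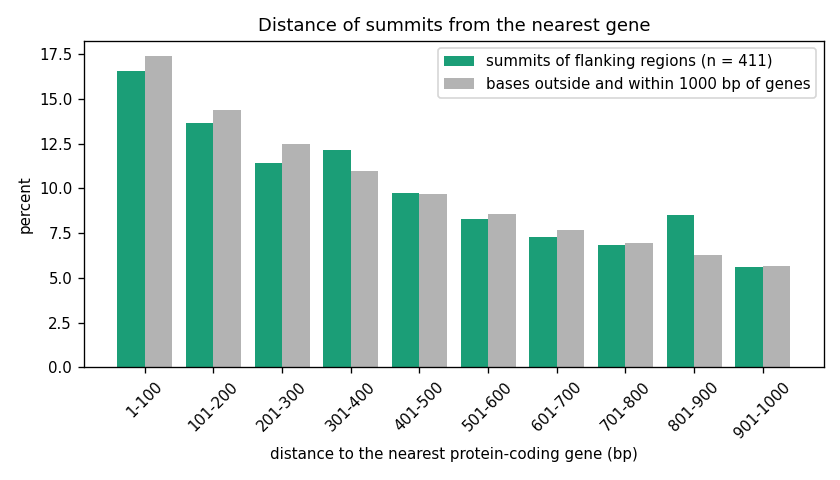
Percent of flanking summits (green, n = 411) and percent of the bases outside and within 1000 bp of protein-coding genes (grey) by distance to the nearest gene in rings of 100 bp (x axis). Both fall with distance, from 16.5% and 17.4% in the first ring to 5.60% and 5.69% in the last.

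The summits just inside the limit were those at FBA4 at 990 bp (scores 2.33, 3.15 and 3.82 in replicates 1, 2 and 3), AS1 at 993 bp (2.16, 2.00 and 1.92) and AT4G22200, a potassium channel gene, at 997 bp (2.42, 2.45 and 2.85). Just outside lay those at SPL8 at 1002 bp (2.16, 1.92 and 2.21), HB16 at 1003 bp (2.00, 2.48 and 2.00) and AT2G36090 at 1010 bp (2.04, 2.33 and 2.15). At FBA4 the summit of replicate 2 by itself lay beyond 1000 bp, as did that of replicate 1 at AS1 and of replicate 3 at AT4G22200.

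A gene within 1000 bp was found on both sides of 122 sites (29.7%, Wilson interval 25.5 to 34.3%), and 29.7% of all flanking bases have the same property. Of the 411 sites, 129 had at least 2 genes within reach and 11 had 3. Together the sites flanked 546 of 25680 protein-coding genes (2.13%). Of the 411 summits, 12 (2.92%) lay inside a gene that is not protein-coding, 9 of them in long non-coding RNA genes. The share of flanking bases inside such genes was not worked out.

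Of the 15 gene lists, organ growth had the most genes with a flanking site, 7 of 37 tested (18.9%) against 2.13% of all genes. It was also the longest list, and the lists were chosen with earlier results of these data known. The 7 genes were SPL8, SPL10, SPL11, TCP4, TCP14, GRF4 and GRF6, all of which encode transcription factors. The SPL factors time phase change and organ formation, TCP4 limits and TCP14 modulates cell proliferation, and the GRF factors promote it. The site at TCP4 (AT3G15030, chr3:5063562-5065863) lay 267 bp away and scored 2.52, 2.36 and 2.32 in replicates 1, 2 and 3. The site at GRF6 (AT2G06200) at 518 bp scored 2.04, 2.28 and 3.00. The site at TCP14 (AT3G47620) at 652 bp scored 1.95, 2.48 and 2.50, with replicate 1 apart from the others. The site at GRF4 (AT3G52910) at 883 bp was low in every list, with 2.04, 1.94 and 2.17, and the summits of its lists lay 976 bp apart, with that of replicate 2 beyond 1000 bp.

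SPL8 (AT1G02065), which acts in anther development, had a site at 263 bp (chr1:366684-371784) that scored 2.24, 2.52 and 2.49 in replicates 1, 2 and 3, in a region 5101 bp wide. SPL10 and SPL11 are neighbours and share a site (chr1:9503891-9505018) that lay 410 bp from SPL11 and 679 bp from SPL10 and scored 2.31, 2.40 and 2.27. SPL11 had another on its far side, at 636 bp, that scored 2.31, 2.18 and 2.55, though AT1G27350 lay nearer to that summit. The 7 organ growth genes therefore rest on 7 sites, of which SPL10 and SPL11 share 1.

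By gene name, SPL genes had a flanking site in 5 of 16 tested genes (31.2%) and TCP genes in 5 of 16 (31.2%). The share of all tested genes was 2.13%, and the name patterns were tightened after counts were seen. SPL10 and SPL11 count here as separate genes though they share a site. The SPL and TCP names also cover SPL1 and SPL4 and, of the TCP genes, TCP9, TCP20 and AT5G23280, outside the organ growth list. At SPL1 the summits of the lists lay 949 bp apart. SPL4 scored 2.37, 2.53 and 3.15 in replicates 1, 2 and 3. TCP20, a class I TCP gene, scored 2.72, 2.58 and 2.90 at 867 bp. At TCP9 and AT5G23280 another gene, SSE1 and PFD5, was nearer to the summit. Genes listed in the table under other names are missed by such a count.

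Of the gibberellin genes 2 of 13 had a flanking site (15.4%, against 2.13% of all genes), GA20OX2 (AT5G51810), an enzyme of gibberellin synthesis, and RGL2 (AT3G03450), a DELLA repressor of gibberellin response. GA20OX2 scored 2.96, 2.58 and 3.75 in replicates 1, 2 and 3 at 463 bp (chr5:21054130-21055026), the highest mean among the genes of the 15 lists. RGL2 scored 2.58, 2.28 and 2.18 at 63 bp. Of the auxin genes 2 of 23 had a site (8.70%). PID (AT2G34650), a kinase that directs auxin exporters, scored 2.26, 2.97 and 3.65 at 462 bp (chr2:14591267-14594941), so replicate 1 was the lowest and replicate 3 the highest by a range of 1.39. The summits of the lists lay 1113 bp apart there, and that of replicate 1 was itself beyond 1000 bp. ARF8 (AT5G37020), an auxin response factor, scored 2.18, 2.33 and 2.97 at 37 bp, with the summit of replicate 1 in a gene body. None of the 12 cytokinin genes tested had a flanking site.

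Beyond that list, genes named SAUR had a flanking site in 10 of 75 tested genes (13.3%, against 2.13% of all genes), a count added after the values were seen. SAUR27 and SAUR28 share a site (2.69, 2.87 and 3.95 in replicates 1, 2 and 3), and SAUR26 shares another with AT3G03847 close by (2.70, 2.93 and 3.15). AT4G38840 and SAUR15 are a further pair with a common site (2.81, 3.26 and 3.44). The 10 genes rest on 7 sites, since neighbours in a cluster lie within reach of the same summit. Among Aux/IAA genes, the site at ATAUX2-11 (AT5G43700) scored 3.13, 2.93 and 3.30 at 109 bp and the region at IAA9 scored 2.16, 2.14 and 2.23, both below IAA13. The median summit at IAA9 lay at 791 bp, but the summits of the lists were 1579 bp apart, that of replicate 1 lay beyond 1000 bp, and the peaks had no common stretch. Of the GH3 genes, GH3.3 scored 2.34, 2.25 and 2.05 at 137 bp and DFL2 1.88, 2.28 and 2.40.

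The cell cycle lists are short, and each held at most 1 gene with a flanking site. KRP7 (AT1G49620), an inhibitor of cyclin-dependent kinases, was the only one of 15 tested inhibitors (6.67%, against 2.13% of all genes), with scores of 2.58, 2.38 and 3.00 in replicates 1, 2 and 3. Its median summit lay 11 bp from the gene, but the summits of the lists were 753 bp apart, and that of replicate 3 lay in a gene body. The region held 5 peaks, and the highest-scoring peaks of the lists had no common stretch. CYCD3;3 (AT3G50070), a D-type cyclin that promotes entry into the cycle, was the only one of 9 (11.1%), at 409 bp with 2.26, 3.02 and 2.45. None of 8 other core cell cycle genes had a flanking site.

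Flanking sites at patterning genes had low scores. Organ polarity genes had 2 of 14 (14.3%, against 2.13% of all genes), KAN1 (AT5G16560), a determinant of the lower organ side, with 2.22, 2.23 and 2.00 in replicates 1, 2 and 3 at 633 bp, and AS1 (AT2G37630), which acts on the upper side, at 993 bp. Among floral identity genes SHP1 (AT3G58780), a MADS-box gene of the fruit, was the only one of 21 (4.76%), with 1.88, 1.94 and 2.35 at 46 bp. Among shoot meristem genes ATH1 (AT4G32980), a BELL homeobox gene, was the only one of 11 (9.09%), with 2.27, 1.94 and 2.30 at 57 bp. None of 10 organ boundary genes tested had a flanking site. All 4 of these sites had mean scores below the median of the flanking sites. The summits of the lists lay 833 bp apart at KAN1, with that of replicate 1 in a gene body, and 991 bp apart at SHP1, with that of replicate 1 beyond 1000 bp. At AS1 the summit of replicate 1 also lay beyond 1000 bp.

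Of the chromatin and co-repressor genes 2 of 14 had a flanking site (14.3%, against 2.13% of all genes), TPL (AT1G15750) and TPR3 (AT5G27030), both of the TOPLESS family. TPL scored 2.12, 1.97 and 2.42 in replicates 1, 2 and 3 at 118 bp, with the summit of replicate 1 in a gene body, and TPR3 scored 2.37, 2.23 and 2.70 at 254 bp. Of the lists meant as contrasts, photosynthesis had 1 of 9 (11.1%) with LHCA2, a light-harvesting gene, at 978 bp (2.31, 1.95 and 2.50), where the summits of the lists lay 655 bp apart, and seed storage (6 genes) and housekeeping (9 genes) had none. Over all 15 lists 20 of 211 tested genes (9.48%) had a flanking site. The lists were picked for development, and no test of their counts was made.

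**Figure D4:**
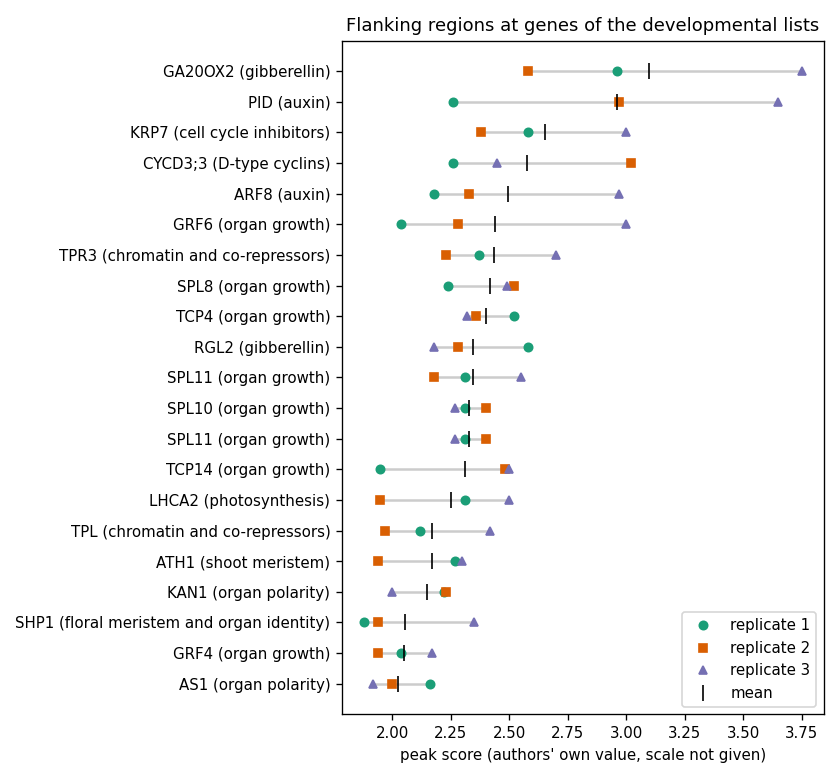
Peak score (x axis, the authors' own value) at flanking sites of genes in the 15 lists, by gene and list (y axis), with circles, squares and triangles for replicates 1, 2 and 3 and a black tick for the mean. GA20OX2 and PID have the highest means; SPL10 and SPL11 share a site and SPL11 appears with 2.

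A flanking site lay on each side of 5 genes. PIP1B (AT2G45960), an aquaporin of the plasma membrane, had a site at 793 bp on the left that scored 2.84, 3.30 and 3.58 in replicates 1, 2 and 3, and a site at 64 bp on the right that scored 2.38, 2.25 and 2.05, where CYP86A8 was nearer. The related PIP1A scored 2.58, 2.23 and 1.92 at 114 bp and PIP1C scored 2.13, 1.96 and 1.89 at 310 bp, so 3 of 13 genes named as plasma membrane aquaporins were flanked (against 2.13% of all genes), a count added after the values were seen. AT5G66770 had sites at 722 bp with 3.12, 3.35 and 4.07 and at 212 bp with 2.31, 2.83 and 2.65. AT1G12380 had sites at 917 bp with a mean score of 2.22 and at 98 bp with a mean score of 2.35. SPL11, described above, and AT5G14550 were the others.

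AT5G14550 lay between genes of the miR398 microRNA, which targets copper/zinc superoxide dismutase messages. Its left site (chr5:4689695-4691446), with 3.37, 2.85 and 3.45 in replicates 1, 2 and 3, was 214 bp from MIR398b and 198 bp from AT5G14550. Its right site (chr5:4693547-4695216), with 2.31, 2.77 and 2.47, was 266 bp from MIR398c. That summit lay 373 bp from AT5G14550, while AT5G14560 was nearer, at 342 bp. In all, 6 of 411 sites (1.46%) had a microRNA gene within 1000 bp, the others being MIR861, MIR5642b, MIR408 and MIR407. The share of flanking bases that near a microRNA gene was not worked out, so this count cannot be called high or low. MIR408, which like miR398 responds to copper supply, had a site at 297 bp that scored 1.88, 2.07 and 2.06. The site near MIR5642b, at the start of chromosome 2 (chr2:3378-3592), had the same start and end in every list, which was seen at no other recurrent region.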

How the data were processed

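Chromatin immunoprecipitation and sequencing covered 3 samples of each group, JAG-GFP and wild-type, as their titles name them. The authors deposited 1 peak list per replicate number, with positions, widths, summits and a score per peak, per the file headers. The scale of that score, the peak caller and the control behind each list are not stated by the labels or headers. Each list is named as a ratio, but of which samples is not stated. The submitters' processing notes name CASAVA 1.8 and the build TAIR10. Peaks were merged over lists (Python 3.11.15, pandas 2.3.3), and summits were placed against 27444 nuclear protein-coding genes of the RefSeq table of assembly TAIR10.1, of which 25680 end before position 23827070 or lie on other chromosomes. Nuclear positions of the assembly were taken to match those of the lists, and distances rest on this. That table holds neither strand nor sequence, so the planned motif counts and the split by gene start were not made. Merging and placing were tested on simulated peaks, with genes far apart and the summits of a site close together. Long chains of peaks, scattered summits and summits at the 1000 bp limit were not simulated.

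Named sites are the 25 highest, those at genes of 15 lists (232 loci), genes with 2 sites, and those at the 1000 bp limit or with the lowest means. Members and lists were chosen with earlier results of these data known; name patterns for families were tightened after counts were seen. Leaving out each list, other overlaps, summits, gene sets and distances were tried as alternatives. Wilson intervals (95%, SciPy 1.17.1) describe counting error alone; precision is limited by how many peaks a list holds, and the depth of the libraries is unknown.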

Additional observations from a re-analysis of the deposited data

Results flagged for a closer look

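A stretch left out of the regions described above held sites of the same kind. Beyond position 23827070 of chromosome 1, the last one that replicate 3 covers, the lists of replicates 1 and 2 shared 114 regions, of which 56 (49.1%) had their summit outside genes and within 1000 bp of one. The list of replicate 3 has 0 peaks there. The highest of the 56 had JAG itself nearest, with scores of 14.54 and 16.96 in replicates 1 and 2. The tagged plants carry JAG sequence in the transgene too, and fragments of the transgene and of the native locus cannot be told apart.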

How the results depend on the processing

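The number of flanking sites was 411. It moved to 809 with a peak in at least 2 of 3 lists, to 229 with the highest-scoring 50% of each list and to 261 with a distance of 500 bp, and lay between 519 and 588 when a replicate was left out. The other settings gave 335 to 552. The flanking share of 47.3% lay between 47.1% and 48.5% when a replicate was left out. It was 30.0% with a distance of 500 bp and 63.5% with 2000 bp, and 38.6% when the summit of each list had to flank a gene, a setting chosen after seeing the data; the other settings gave 45.3% to 49.1%. Organ growth genes with a flanking site numbered 3 with 500 bp, 11 with 2000 bp, and 5 to 8 in the other settings. The alternatives for promoter motifs and for the side of the gene were not run, for want of strand and sequence. No paired analysis was possible because the result comes from no test and the lists have no separate wild-type column. Whether a score already takes in a wild-type sample is not stated. With the depth of the libraries unknown, the lowest detectable signal cannot be given.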

Other observations

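Other families of regulators also had flanking sites, by patterns in the gene names of the table, against 2.13% of all tested genes. The counts were 8.89% for bHLH genes (4 of 45), 5.83% for MYB genes (7 of 120), 4.69% for WRKY genes (3 of 64), 4.21% for MADS-box genes (4 of 95), 3.54% for homeobox genes (4 of 113) and 2.06% for NAC genes (2 of 97). Cytochrome P450 genes had 4 of 222 and the transporter pattern 7 of 477 (1.47%). None of these counts was tested. Each covers only genes whose name fits the pattern, such as 45 bHLH genes, so it is not a share of the whole family. Neighbouring genes with a common site add to such counts: NAC048 and NAC049 share 1, with scores of 2.60, 3.13 and 4.11 in replicates 1, 2 and 3.

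Among bHLH genes, PAR1 (AT2G42870), which like PIF7 acts in shade responses, had a site at 789 bp with 2.22, 3.11 and 2.51 in replicates 1, 2 and 3, where the summits of the lists lay 1027 bp apart. WRKY11 (AT4G31550) scored 2.53, 2.82 and 3.38 at 96 bp. The neighbouring cold-response genes DREB1A and CBF1 had a site each, with 2.36, 2.03 and 2.44 at 50 bp from DREB1A and 2.25, 2.05 and 2.07 at 352 bp from CBF1, and the summit of replicate 2 lay in a gene body at both. HAT3, a class II HD-ZIP gene like HAT2, scored 2.64, 2.34 and 2.92 at 302 bp. CYP82G1 (AT3G25180) scored 2.04, 3.68 and 4.19, so replicate 1 was low against the other lists. These genes were picked after their values were seen.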
